A study of Homo sapiens with 4 samples.

Results

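The MYC, MAX and MXD network is a set of genes for transcription factors of the basic helix-loop-helix leucine zipper class. Its 10 members here (MYC, MYCN, MYCL, MAX, MXD1, MXD3, MXD4, MXI1, MNT and MLX) were taken by symbol from a count table of 56303 genes, in which all 10 were listed. RNA sequencing libraries came from T24T and EJ, 2 human bladder cancer cell lines, with 1 library in each of 4 groups: T24T transfected with hsa_circ_0008399 (circ), T24T transfected with vector, EJ transfected with hsa_circ_0008399, and EJ transfected with vector. hsa_circ_0008399 is a circular RNA, and the series was set up to screen for genes downstream of it. All 4 groups are transfected cells. How long the transfection lasted and the make of the vector are not given in the sources used here, and the table of 1 value per gene holds no value for the circle itself. T24T is a derivative of the bladder cancer line T24, and stocks named EJ have elsewhere been traced to T24 by DNA profiling. That link was not tested here.

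MYC proteins bind the E-box, a short palindromic DNA site, only as dimers with MAX, and they raise transcription of genes for ribosome production, nucleotide synthesis and cell growth. The MXD proteins (MXD1, MXI1, MXD3 and MXD4) and MNT also need MAX, compete with MYC for it and bring the SIN3 corepressor to the same sites. MLX resembles MAX, and it pairs with MXD1, MXD4 and MNT and with the glucose-sensing factors MLXIP and MLXIPL. MYC is among the oncogenes most often raised in bladder and other carcinomas.

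Total counts were 18057768 in T24T circ, 16864247 in T24T vector, 14703455 in EJ circ and 15639289 in EJ vector. The share of counts from mitochondrial genes was lower with circ in both lines, at 3.08% in T24T circ against 5.05% in T24T vector and 4.01% in EJ circ against 5.4% in EJ vector. Its part in the differences below was not tested. The keratin genes KRT7, KRT8 and KRT18 were abundant in all libraries, with 2164 counts or more each, whereas the other urothelial and epithelial markers listed were low. GATA3, KRT5, UPK3A, UPK1B, KRT20 and TP63 had 0 to 5 counts in each library, UPK1A 7 to 25, PPARG 11 to 44 and UPK2 23 to 48. EPCAM had 111 and 117 counts in T24T and 4 and 7 in EJ. The leukocyte markers PTPRC, CD3E and CD14 had 0 to 2 counts.

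MYC was the MYC family gene of these cells. It had 41.8 RPKM (read counts scaled to exonic length and to the library total) in T24T circ, 38.1 in T24T vector, 27.7 in EJ circ and 27.9 in EJ vector, above at least 92.1% of the genes with a read in the same library. MYCN, the family member known from neuroblastoma, had 0 counts in all 4 libraries, which allows up to 0.0784 RPKM in the shallowest of them (3 counts, counting error only). MYCL, known from small cell lung cancer, had 11 counts in T24T circ and 1 in T24T vector, and 2 in EJ circ and 4 in EJ vector. The T24T ratio of MYCL was 10.4, with a 95% counting interval of 1.52 to 449.4, and the EJ ratio was 0.535 (0.0484 to 3.73). MYCN and MYCL stayed below the minimum for testing (10 counts in at least 1 library and 20 over the 4), which 8 of the 10 members passed, as did 17689 genes in all.

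Per length, the members fell into 4 tiers. MYC (27.7 to 41.8 RPKM over the 4 libraries), MLX (36.4 to 38.9) and MXD3 (25 to 32.9) formed the upper tier. The MYC range overlapped those of MLX and MXD3, and MLX lay above MXD3 in every library. MAX followed alone at 7.98 to 11.7 RPKM. MXI1 (3.38 to 4.96), MNT (2.76 to 3.79) and MXD4 (2.09 to 3.75) overlapped among themselves, and MXD1 (1.06 to 1.5) lay below them. The MXD3 level is uncertain, because 22.5% of its exonic length is shared with exons of PRELID1 on the opposite strand and 18% with exons of RAB24 on its own strand. PRELID1 had 3110 to 3299 counts per library, and the use of strand in counting is not given. The same holds for MLX, which shares 18.1% of its exonic length with PSMC3IP on the other strand, and to a smaller extent for MNT, at 12.2% with an antisense transcript of 22 to 55 counts. PSMC3IP had 3813 counts in T24T circ against 2908 in T24T vector, and 5107 in EJ circ against 4137 in EJ vector. MXD1 shares 3.73% with SNRNP27 on its own strand, which had 1414 to 2137 counts per library against 100 to 161 for MXD1. MXD4 shares exonic bases with no other gene in the table, MAX shares 4.15%, and MYC shares none.

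**Figure D1:**
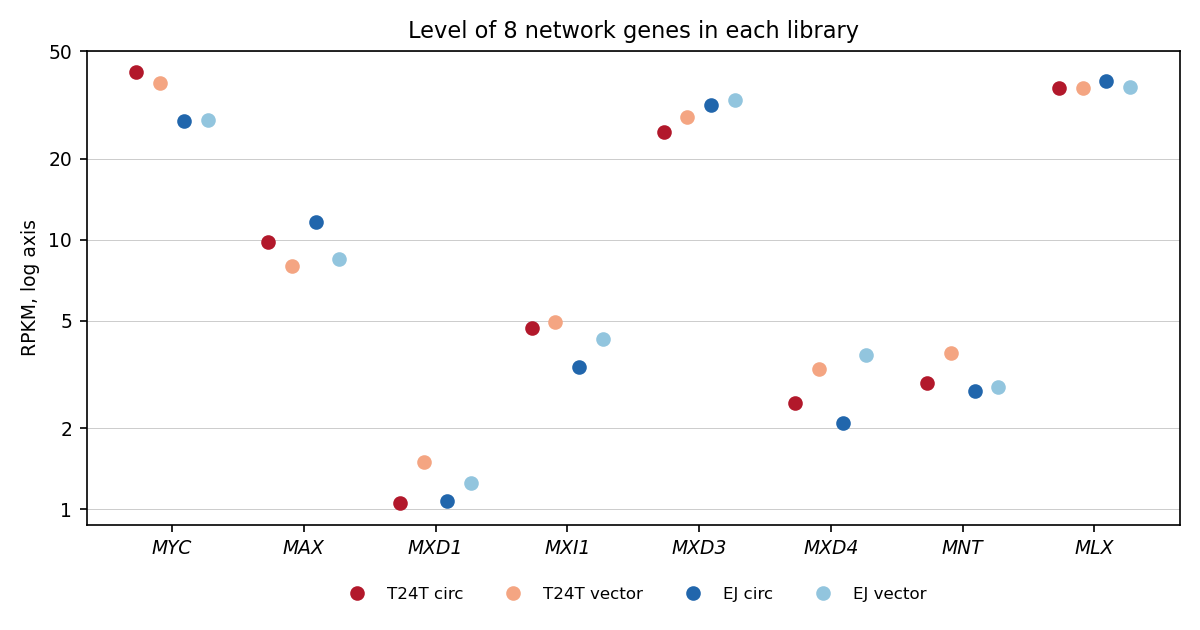
Level of each of the 8 tested members (points, 1 per library, RPKM on a log axis) in T24T circ, T24T vector, EJ circ and EJ vector cells. MAX is higher and MXD4 and MXD1 are lower in circ than in vector in both lines, and MYC is higher in both T24T libraries (38.1 and 41.8) than in both EJ libraries (27.7 and 27.9).

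The effect of circ was tested in both lines at once with edgeR's quasi-likelihood method, with cell line as a block. With circ, MAX rose and MXD4 fell, while MYC itself did not pass the test. These are 2 of 8 tested members (25%), against 12.7% of all genes tested (7.13% higher and 5.56% lower in circ) and 17.2% of the 9121 genes in the same range of mean count, so the share of members called was not far from the background. With 1 library per group, the spread within a group was not measured, and the labels do not say whether the libraries came from separate cultures. The 1 residual degree of freedom reflects how far the ratio of circ to vector differed between the lines. The rest of the spread behind the p-values is pooled over genes.

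MAX, the obligate partner of MYC, MXD and MNT proteins, had 9.81 RPKM (785 counts) in T24T circ against 7.98 (596) in T24T vector, and 11.7 (760) in EJ circ against 8.49 (588) in EJ vector. Both circ libraries lay above both vector libraries. MAX rose, with an estimate of 0.39 ± 0.10 on the log2 scale (fitted SE, 2 lines, edgeR adjusted p = 0.00601). The log2 ratio of circ to vector was 0.32 in T24T and 0.47 in EJ. The 95% counting interval of the plain ratio was 1.12 to 1.39 in T24T and 1.24 to 1.54 in EJ. MAX lies on chromosome 14 (chr14:65006174-65102695, hg38, minus strand).

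MXD4, a repressor that pairs with MAX or MLX, had 2.47 RPKM (315 counts) in T24T circ against 3.32 (395) in T24T vector, and 2.09 (217) in EJ circ against 3.75 (414) in EJ vector. Both circ libraries lay below both vector libraries, with the wider gap in EJ. MXD4 fell, with a log2 fold change of -0.61 ± 0.12 (SE, n = 2 lines; edgeR adjusted p = 0.00100). The ratio of circ to vector was 0.757 in T24T (95% counting interval 0.651 to 0.880) and 0.561 in EJ (0.474 to 0.662). MXD4 lies on chromosome 4 (chr4:2247432-2262294, hg38, minus strand).

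MYC lies on chromosome 8 (chr8:127735434-127741434, hg38, plus strand). It had 2265 counts in T24T circ against 1929 in T24T vector, and 1220 in EJ circ against 1309 in EJ vector. Circ was above vector in T24T and nearly level with it in EJ, and the circ and vector libraries overlapped. Its log2 fold change was 0.08 ± 0.08 (SE, n = 2 lines; edgeR adjusted p = 0.618). The T24T ratio was 1.12, with a counting interval of 1.05 to 1.19, and the EJ ratio was 0.997 (0.921 to 1.08). The genes whose levels over the 4 libraries lay nearest to MYC, by distance between centred log2 CPM, were ANKZF1 (0.0412), CKAP4 (0.0486), RP11-277P12.6 (0.0489), RYBP (0.05) and CALR (0.05), among 11880 genes with 50 counts in each library. All 5 were higher in both T24T libraries than in both EJ libraries, and the likeness is a description over 4 libraries.

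The other repressors among the members had negative values without passing the test. MXD1, which rises when many cell types differentiate, had 1.06 RPKM in T24T circ against 1.5 in T24T vector and 1.07 in EJ circ against 1.248 in EJ vector. The groups did not overlap, but counts were only 100 to 161 per library and the log2 fold change was -0.36 ± 0.17 (SE, n = 2 lines; edgeR adjusted p = 0.166). MNT, the most widely expressed of the MYC antagonists, had 2.94 RPKM in T24T circ against 3.79 in T24T vector, and 2.76 in EJ circ against 2.84 in EJ vector. MNT was thus lower in T24T circ and nearly level in EJ, with a log2 fold change of -0.20 ± 0.11 (edgeR adjusted p = 0.272). MXI1 had 4.71 RPKM in T24T circ against 4.96 in T24T vector, and 3.38 in EJ circ against 4.29 in EJ vector, the reverse arrangement of the lines (-0.18 ± 0.12, edgeR adjusted p = 0.365). MXD3, known in mouse as the MXD gene of cells in S phase, had 25 RPKM in T24T circ against 28.5 in T24T vector, and 31.5 in EJ circ against 32.9 in EJ vector (-0.11 ± 0.08, edgeR adjusted p = 0.456). With MXD4, all 5 repressor genes among the tested members had log2 ratios below 0 in both lines, as did 32.3% of all genes tested. The repressor gene MGA, which is not among the members, had ratios above 0, at 0.23 in T24T and 0.14 in EJ.

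MLX, on chromosome 17 (chr17:42567068-42573239, hg38, plus strand), did not pass the test. It had 36.6 RPKM in T24T circ against 36.4 in T24T vector, and 38.9 in EJ circ against 36.8 in EJ vector (log2 fold change 0.06 ± 0.08, edgeR adjusted p = 0.713).

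**Figure D2:**
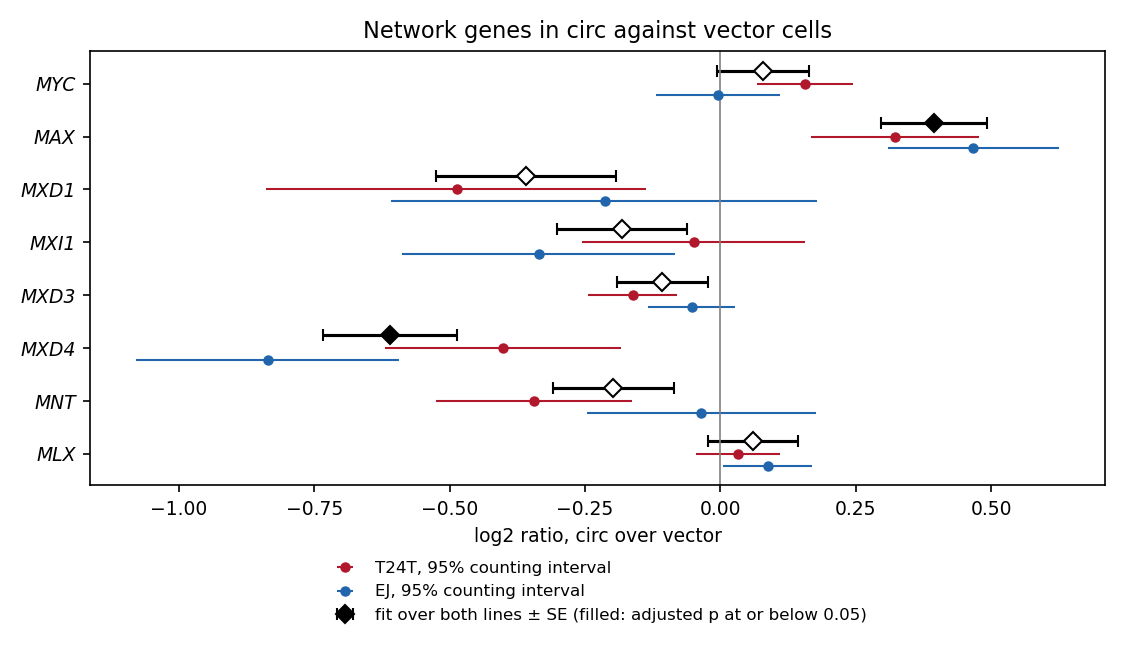
Log2 ratio of circ over vector for the 8 tested members: the fit over both lines with its SE (diamonds, filled where the adjusted p is 0.05 or less) and the ratio in T24T and in EJ with 95% counting intervals (points). MAX (0.39) and MXD4 (-0.61) carry the filled diamonds, and the 5 repressor genes among the members (MXD1, MXI1, MXD3, MXD4 and MNT) all lie below 0.

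The calls of MAX and MXD4 depend on the model. DESeq2 gave adjusted p = 0.223 for MAX and 0.1 for MXD4, limma on log2(RPKM + 1) gave 0.178 and 0.168, and edgeR without the cell-line block gave 1 for each, with log2 fold changes of 0.38, 0.34 and 0.40 for MAX and -0.63, -0.47 and -0.61 for MXD4 under those 3 settings. No member differed 1.5-fold in the same direction in both lines, as 3.89% of all genes tested did. Among the 8 tested members, none differed 1.5-fold in T24T (13.8% of all genes, 4.76% of those in the members' range of mean count), and in EJ MXD4 alone did (13.3% and 3.97%).

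Set against each other per length, the members gave these ratios of RPKM. The level of MAX was 3.97 times that of MXD4 in T24T circ against 2.40 times in T24T vector, and 5.58 times in EJ circ against 2.26 times in EJ vector. As MAX was higher and MXD4 lower with circ in both lines, this ratio had to be higher and adds nothing to their calls. MYC stood at 4.26 times MAX in T24T circ against 4.78 in T24T vector, and at 2.37 times MAX in EJ circ against 3.29 in EJ vector. Against the summed RPKM of MXD1, MXD4, MXI1 and MNT, MYC stood at 3.74 in T24T circ against 2.81 in T24T vector, and at 2.97 in EJ circ against 2.30 in EJ vector. With the uncertain MXD3 added to that sum, the ratios were 1.15 against 0.907 in T24T and 0.677 against 0.620 in EJ. These are ratios of mRNA levels with 1 library per group and no test.

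The binding site of the whole network, the E-box CACGTG, was searched for in RefSeq promoter windows (GRCh38.p14, 250 bases before to 50 after an annotated start). Its letters read the same on both strands. Of the 10 members, 9 matched a window (all but MYC), and MXD4, MNT and MLX held the motif, 3 of 9. It occurs in 8.77% of 27305 genes with a window and in 12.4% of the tested genes with one. Neither MAX window held it, but both of those windows lie inside the MAX gene, downstream of the start the count table uses. The same holds for the single windows of MXD1 and MYCL, which also held none. The non-canonical form CACGCG, searched on both strands (its reverse complement reads CGCGTG), was found in windows of MXD3 and MXI1, 2 of 9, and in 22.1% of tested genes. In MXI1 it lay only in a window inside the gene (chr10:110225746-110226045), and not in the window at the start the count table uses. The MXD4 window is printed in full because MXD4 was the member that fell, with the E-box in capitals, chr4:2262060-2262359, minus strand.
MXD4: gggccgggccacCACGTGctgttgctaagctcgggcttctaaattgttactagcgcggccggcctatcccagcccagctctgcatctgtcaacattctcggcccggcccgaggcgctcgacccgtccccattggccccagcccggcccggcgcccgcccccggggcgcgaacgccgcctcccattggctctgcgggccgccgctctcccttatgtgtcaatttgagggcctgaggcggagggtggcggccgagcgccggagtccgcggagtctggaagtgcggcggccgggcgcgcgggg

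The E-boxes of the other members are given with 12 bases on each side, to compare their flanks with that of MXD4. Counted from the RefSeq start, the first E-box base is at -193 in MNT (chr17:2401248-2401253, minus strand) and at -50 in MLX (chr17:42567050-42567055, plus strand), and at -238 in MXD4. Each of these starts lies inside the gene as the count table spans it, so each E-box is nearer to the start used there. For MXD4 that start is chr4:2262294, and the E-box is at chr4:2262342-2262347.
MNT: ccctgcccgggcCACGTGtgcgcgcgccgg
MLX: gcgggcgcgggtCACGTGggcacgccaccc
A match describes the letters of the window only. MXD4 fell with circ, while MNT and MLX, which hold the same motif, did not pass the test.

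T24T was set against EJ over both transfections in the same fit, and MYC, MXI1 and MNT were higher and MXD3 lower in T24T, 4 of 8 tested members, while 41.4% of all genes tested differed (21.9% higher and 19.5% lower in T24T). MYC was the clearest, with 41.8 and 38.1 RPKM in T24T against 27.7 and 27.9 RPKM in EJ. Both T24T libraries lay above both EJ libraries, with a log2 fold change of 0.59 ± 0.09 (SE, n = 2 libraries per line; edgeR adjusted p = 9.99e-07). The difference was present among circ libraries (log2 ratio 0.67) and among vector libraries (0.51). Each line has 1 circ and 1 vector library, so the spread between repeat cultures of a line was not measured.

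MXI1, a gene known to respond to hypoxia, had 4.71 and 4.96 RPKM in T24T against 3.38 and 4.29 RPKM in EJ (log2 fold change 0.40 ± 0.12, edgeR adjusted p = 0.00749). MNT had 2.94 and 3.79 RPKM in T24T against 2.76 and 2.84 RPKM in EJ (0.32 ± 0.11, edgeR adjusted p = 0.0213). For both genes every T24T library lay above every EJ library. MXD3 had 25 and 28.5 RPKM in T24T against 31.5 and 32.9 RPKM in EJ (-0.21 ± 0.08, edgeR adjusted p = 0.0472), again without overlap. MAX (-0.11 ± 0.10, edgeR adjusted p = 0.397), MXD1 (0.20 ± 0.17, 0.365), MXD4 (0.08 ± 0.12, 0.652) and MLX (0.01 ± 0.08, 0.931) did not pass the test. The sign for MLX flipped under other scalings, between 0.01 and -0.05. DESeq2 called MYC alone (adjusted p = 0.000337), with 0.250 for MXI1, 0.351 for MNT and 0.259 for MXD3. MNT also missed the threshold when library size alone was used for scaling (adjusted p = 0.0666), and MXD3 with the stricter filter of 50 counts in each line (0.0702).

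**Figure D3:**
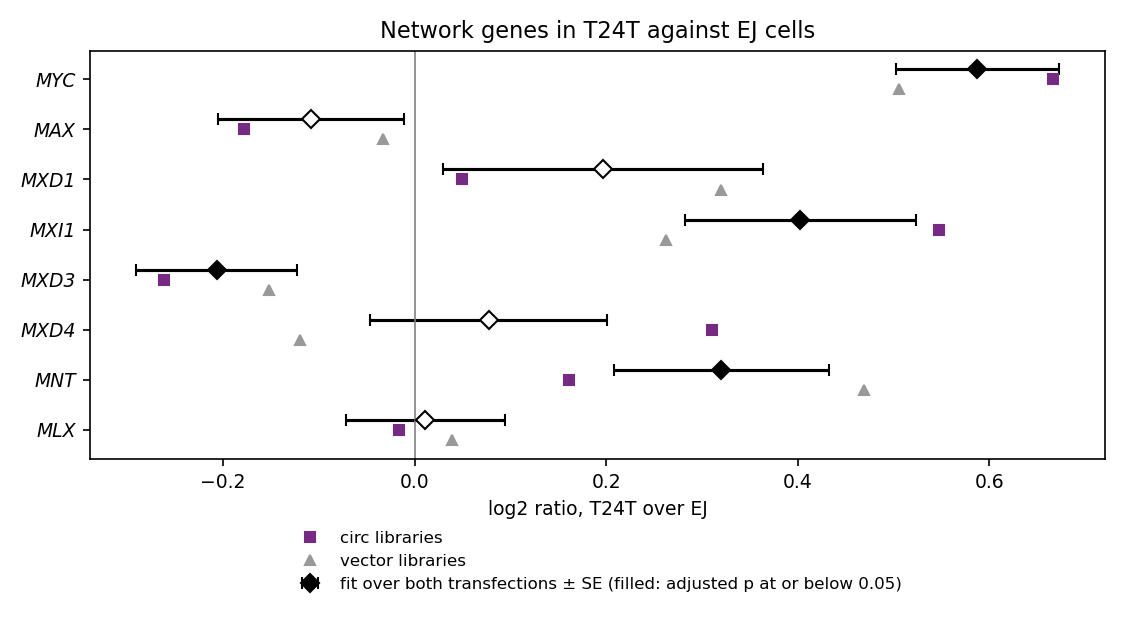
Log2 ratio of T24T over EJ for the 8 tested members: the fit over both transfections with its SE (diamonds, filled where the adjusted p is 0.05 or less), the circ libraries alone (squares) and the vector libraries alone (triangles). MYC lies at 0.59, MXI1 at 0.40 and MNT at 0.32, and MXD3 at -0.21.

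Whether the response to circ itself differed between the lines could not be tested, since such a fit leaves no residual degree of freedom. The difference of the log2 ratios, T24T minus EJ, was 0.43 for MXD4, 0.28 for MXI1 and 0.16 for MYC, and it was -0.31 for MNT, -0.27 for MXD1, -0.14 for MAX, -0.11 for MXD3 and -0.06 for MLX.

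Lists of genes around the network were counted in the same fit. Of 23 genes for MYC coactivators and MXD or MNT corepressors, 1 rose with circ, none fell and 22 did not pass. That is 4.35% called against 12.7% of all genes tested, with a median log2 fold change of 0.07 against 0.002. The gene that rose was HCFC1, a host cell factor that binds MYC (0.31 ± 0.08, edgeR adjusted p = 0.0108), with 2089 counts in T24T circ against 1541 in T24T vector and 2152 in EJ circ against 1915 in EJ vector. Of 10 tested genes for other factors of the same class, none rose and 2 fell, SREBF1 (-0.45 ± 0.10, edgeR adjusted p = 0.00148) and SREBF2 (-0.25 ± 0.09, 0.0491), the master regulators of lipid and sterol synthesis. The 20% that fell compare with 5.56% of all genes tested, and the median was -0.16. MLXIP, the glucose-sensing partner of MLX, had -0.29 ± 0.11 (edgeR adjusted p = 0.0648), and MGA, a MAX partner and repressor, had 0.18 ± 0.09 (0.208). MLXIPL was not tested.

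Of 22 genes that act on MYC mRNA or MYC protein stability, 3 rose with circ, none fell and 19 did not pass, 13.6% against 12.7% of all genes. PVT1, the noncoding RNA gene that lies beside MYC, had 255 counts in T24T circ against 162 in T24T vector, and 198 in EJ circ against 132 in EJ vector. It was higher in circ in both lines by much the same factor (log2 fold change 0.63 ± 0.14, edgeR adjusted p = 0.00337), while MYC did not pass. USP36, a nucleolar deubiquitinase that stabilises MYC (0.30 ± 0.09, edgeR adjusted p = 0.0232), and HNRNPD, an AU-rich element binding protein (0.28 ± 0.08, 0.0155), also rose. The ubiquitin ligase genes FBXW7 (0.10) and HUWE1 (0.12) did not pass. DESeq2 did not call USP36 (adjusted p = 0.326), HNRNPD (0.163), HCFC1 (0.208), SREBF1 (0.0919) or SREBF2 (0.348), and it gave no adjusted p for PVT1.

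The largest list held genes commonly induced by MYC. Of 61 listed genes 60 were tested, and 20 rose, 3 fell and 37 did not pass, while MYC itself did not pass either. The 33.3% that rose compare with 7.13% of all genes tested, and the median log2 fold change was 0.17 against 0.002. In either direction 38.3% were called, against 12.7% of all genes tested and 17.2% of those in the network members' range of mean count. No share was worked out for genes matched in count to this list or the other lists. PES1, a ribosome biogenesis factor, had 5809 counts in T24T circ against 3418 in T24T vector, and 5800 in EJ circ against 3820 in EJ vector (0.69 ± 0.08, edgeR adjusted p = 4.56e-07). RRP12, which acts in export of pre-ribosomes, rose by 0.65 ± 0.08 (edgeR adjusted p = 2.10e-06), and HK2, the glycolytic hexokinase, by 0.85 ± 0.12 (9.10e-06). Among genes for nucleolar proteins, NOP2 (0.62 ± 0.08), NOLC1 (0.42 ± 0.08) and NCL (0.34 ± 0.07) rose, while NPM1 (0.06, edgeR adjusted p = 0.672), GNL3 (-0.01, 0.947) and NOP56 (0.22, 0.0903) did not pass. The polyamine enzyme gene ODC1 (0.34) and the pyrimidine synthesis gene CAD (0.29) rose as well. Ribosome production factors were already known to rise in these data when the list was chosen.

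The 3 members that fell were TMEM97, a sterol-regulated membrane protein gene (-1.04 ± 0.12, edgeR adjusted p = 2.39e-07), SLC29A2, a nucleoside transporter gene (-0.72 ± 0.14, 0.000538), and HSPD1, a mitochondrial chaperonin gene (-0.27 ± 0.08, 0.0264). DESeq2 called 6 of the 20 rises (HK2, NCL, NOLC1, NOP2, PES1 and RRP12) and 1 of the 3 falls (TMEM97), and it gave no adjusted p for SLC29A2. The median log2 ratio of the 60 genes was 0.07 in T24T and 0.29 in EJ. In 54 of the 60 genes (90%) the ratio was higher in EJ than in T24T, against 49.0% of all genes tested. The ratio of MYC mRNA was the other way, at 0.16 in T24T and -0.0046 in EJ. Whether MYC has a part in the ratios of the list was not tested. Both lines gave a ratio above 0 for 37 of the 60 genes (61.7%), against 33.4% of all genes tested.

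**Figure D4:**
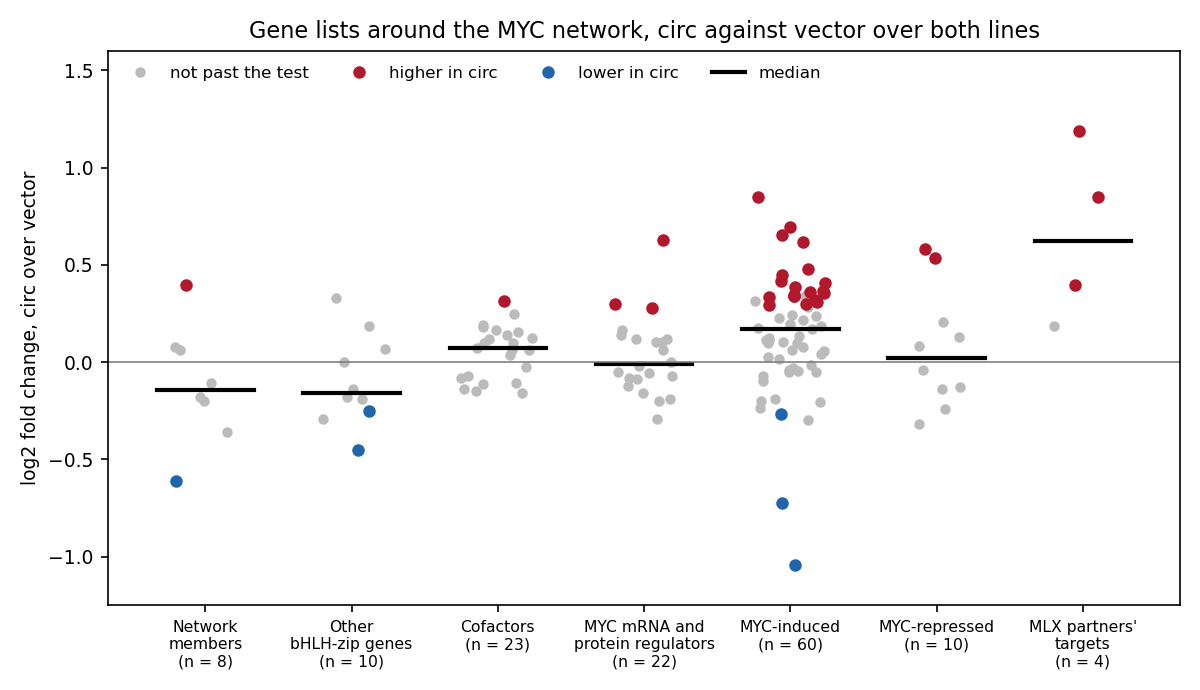
Log2 fold change of circ over vector in the fit over both lines for the 8 network members and 6 gene lists around them (points are genes, red and blue past the test, bars are medians). In the MYC-induced list 20 of 60 genes are red and 3 are blue, with a median of 0.17.

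**Figure D5:**
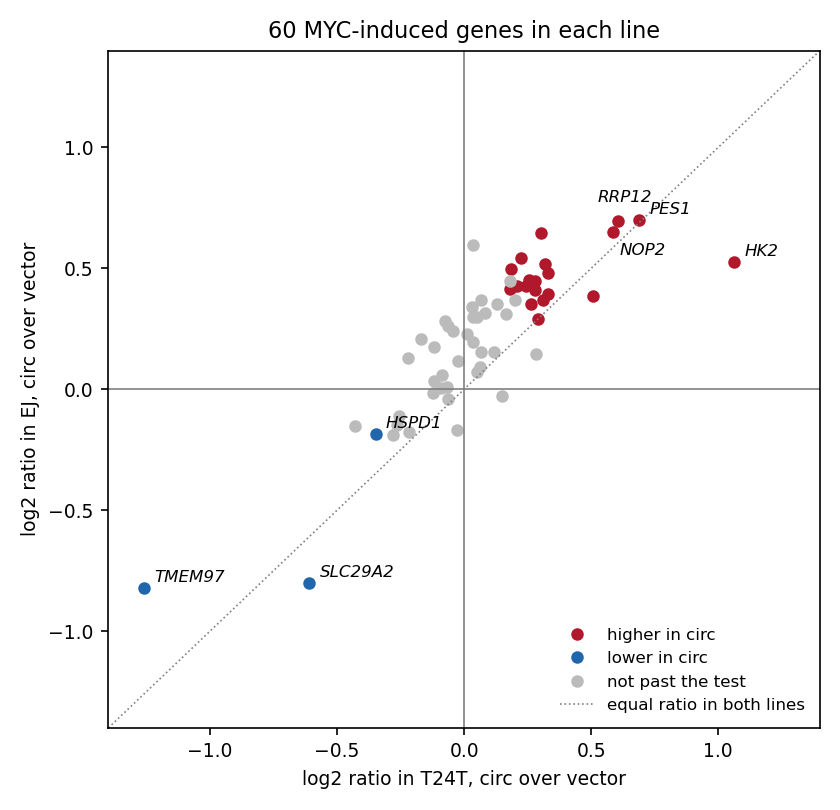
Log2 ratio of circ over vector in T24T (horizontal axis) and in EJ (vertical axis) for the 60 tested MYC-induced genes. Most points (54 of 60) lie above the dotted line of equal ratios, and PES1, RRP12 and NOP2 are above 0.5 in both lines.

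The E-box was frequent in the windows of this list, in 27 of 50 genes with a window (54%), against 12.4% of tested genes. The list was chosen as MYC-induced, so this share describes the list and not the response to circ. Among members that rose the E-box was found in 10 of 16 genes (62.5%), and among the other tested members in 16 of 33 (48.5%). The difference between these shares was not tested. Sites close to the start in PES1 (chr22:30591892-30591897, minus strand), which rose by nearly the same factor in both lines, and in RRP9 (chr3:51941904-51941909, minus strand), a small nucleolar ribonucleoprotein gene that rose by 0.45 ± 0.09, are given with 12 bases on each side, beside both sites of HK2, which had windows at more than 1 start and held them at the downstream one.
PES1: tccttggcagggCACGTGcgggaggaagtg
RRP9: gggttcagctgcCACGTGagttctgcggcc
HK2 upstream site: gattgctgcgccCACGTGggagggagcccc
HK2 downstream site: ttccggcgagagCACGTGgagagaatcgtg

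The next list held genes commonly repressed by MYC. Of 13 listed, 10 were tested, 2 rose, none fell and 8 did not pass, with a median of 0.02. The 20% that rose compare with 7.13% of all genes tested. NDRG1 was higher with circ in T24T only, and the rise of GADD45A was larger in T24T. NDRG1, a stress-induced gene, had 1431 counts in T24T circ against 690 in T24T vector, but 130 in EJ circ against 162 in EJ vector (0.58 ± 0.15, edgeR adjusted p = 0.00852). GADD45A, a growth arrest gene, had log2 ratios of 0.86 in T24T and 0.17 in EJ (0.54 ± 0.11, edgeR adjusted p = 0.000730). The cell cycle inhibitor gene CDKN1A did not pass (0.13 ± 0.09, edgeR adjusted p = 0.405).

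Of 6 listed targets of MLX with MLXIP or MLXIPL, 4 were tested and 3 rose (75%, against 7.13% of all genes tested). All 4 tested genes had ratios above 0 in both lines, as did 33.4% of all genes tested. The untested targets TXNIP and PKLR had 0 or 1 counts in each library. KLF10, a Krüppel-like factor gene, had 993 counts in T24T circ against 512 in T24T vector, and 649 in EJ circ against 234 in EJ vector (1.19 ± 0.12, edgeR adjusted p = 3.34e-08). HK2, also in the MYC-induced list, rose by 0.85, and PFKFB3, a regulator of glycolysis, by 0.40 ± 0.10 (edgeR adjusted p = 0.00955), with log2 ratios of 0.76 in T24T and 0.04 in EJ, so that its rise rests on T24T. The arrestin-domain gene ARRDC4 had 18 to 22 counts per library and did not pass (0.19 ± 0.38, edgeR adjusted p = 0.813). DESeq2 called KLF10 (adjusted p = 2.17e-06) and HK2 (0.00668), but not PFKFB3 (0.693), GADD45A (0.539) or NDRG1 (0.843).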

How the data were processed

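RNA from 4 libraries of transfected EJ and T24T cells (written T24 in the tables) was sequenced. The submitters' processing notes list HISAT2, Trimmomatic and the hg38 build. The counting tool, annotation, strand use and any pooling are not given in the sources used here. The authors deposited read counts for 56303 genes and RPKM values for 29817; all RPKM (100%) equalled count over length and library total (relative tolerance 1e-06). Member spans matched GENCODE release 29 for all 10 members.

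Counts were filtered (10 or more in 1 library, 20 or more over the 4), scaled by TMM and tested with edgeR 4.0.16 (R 4.3.3), quasi-likelihood, Benjamini-Hochberg adjusted over 17689 genes at 0.05, with cell line (or transfection) as block. The pairing comes from the cell line itself. Prior degrees of freedom were 30.5. Ratios within a line used a prior count of 2, without a test; their 95% intervals are exact binomial and cover counting error only. Alternatives used DESeq2 1.42.0, limma 3.58.1, other scalings and filters. The fits were tested on simulated counts, with equal changes in both lines and the same spread for every gene, set near the fitted one. Those counts hold no response that differs between the lines, so they cannot show how the fits handle one. Promoter sequences are RefSeq's (GRCh38.p14).

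Members and gene lists were chosen with earlier results of these data known. All members are named; from each other list, up to 3 genes per direction with the largest log2 fold change among those past the test (else the 2 largest); other genes (such as NOLC1, NCL, NOP2, NPM1, GNL3, NOP56, ODC1, CAD, RRP9, MLXIP, MGA, FBXW7, HUWE1, CDKN1A and ARRDC4) were chosen as examples after their values were seen. CIP2A was matched as KIAA1524.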

Additional observations from a re-analysis of the deposited data

Results flagged for a closer look

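The response of NDRG1 to circ ran in opposite directions. In T24T the log2 ratio was 0.98, in EJ it was -0.22, and they differ by 1.19. This difference between the lines was not tested, since there is 1 library per group. The EJ ratio of 0.858 has a 95% counting interval of 0.676 to 1.09, which includes no change, and NDRG1 was much higher in T24T, at 1431 and 690 counts, than in EJ, at 130 and 162 counts.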

How the results depend on the processing

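The members called with circ numbered 2 in the main setting and also under limma-voom, RLE scaling, scaling by library size, no filter and a stricter filter (50 counts in each line). They numbered 0 with DESeq2 (2 at an unadjusted p under 0.05), 0 with limma on log2(RPKM + 1) (2 unadjusted) and 0 in edgeR without the replicate block of cell line (1 unadjusted), where 0 of all genes were called (397 unadjusted), as with limma on log2(RPKM + 1) (3548 unadjusted). Between the lines 4 members were called, against 3 with library size alone, 3 with the stricter filter, 1 with DESeq2, 1 without the block and 1 with limma on RPKM. Over all genes DESeq2 called 334 for circ, against 2246, and 3217 between lines, against 7315. The list counts without the block were 0 in each list and direction. With DESeq2 they were 0 for other factors of the class (2 falls), cofactors (1 rise), MYC regulators (3 rises, of which PVT1 had no adjusted p) and MYC-repressed genes (2 rises), and 6 of 20 rises and 1 of 3 falls for MYC-induced genes (SLC29A2 had no adjusted p). Members past a set fold in the same direction in both lines numbered 0 at 1.5-fold and 0 at 2-fold, and 1 (MXD4) at a fold of 5/4. The shares of all genes tested were 3.89% at 1.5-fold, 0.758% at 2-fold and 14.2% at a fold of 5/4.

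MLX in T24T against EJ changed sign: it was 0.01 in the main setting, and -0.00073 with RLE scaling, -0.052 with library size alone, -0.011 with no filter, -0.00072 with DESeq2 and -0.051 with limma on RPKM. No other member changed sign in any fit over all libraries; MYC with circ was -0.0046 in EJ alone. Other scalings moved the median log2 ratio of all genes by under 0.1. Leaving out 1 library leaves no residual degree of freedom, so each line alone stands as a value without a test. Counts of 100 to 161 limit MXD1, and MYCN and MYCL lie at or near the floor.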
